A study of Mus musculus with 12 samples.

Results

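Of 5856 mouse genes measured in liver, 129 had mRNA that was higher at each grade of Nrf2 activation and had symbols outside the gene families best known for Nrf2. Each gene was read from the brightest, on average, of its probe sets that list exactly 1 gene symbol. A gene was taken when 3 conditions held. Its group means were strictly higher at each step from Nrf2-null to wild-type, then Keap1-KD, then Keap1-HKO, its Keap1-HKO mean exceeded its Nrf2-null mean by at least 0.8 on the log2 scale, and its lowest Keap1-HKO array lay above its highest Nrf2-null array. Symbols that begin with Gst, Mgst, Cyp, Ugt, Abc, Akr, Ces, Cbr, Aox, Nqo, Eph, Psm, Hsp, Dnaj, Gcl, Gpx, Txn, Prdx or Srxn were left out. In all, 166 genes (2.83%) met the 3 conditions, of which 37 were among the 228 genes of the families left out (16.2%) and 129 among the 5628 other genes (2.29%). The mirrored rule for falling means found 129 genes outside those families as well. Because the measured values chose these genes, their differences between genotypes are given as a description, with no test. The families are left out by symbol alone, so that genes long known as Nrf2 targets, such as Gsr and Ugdh, remain among the 129.

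Total liver RNA of 8-week-old male C57BL/6 mice was hybridized to Affymetrix mouse genome arrays, 1 mouse to an array and 3 mice to a genotype. None of the mice was treated. Nrf2-null mice lack Nrf2 in all tissues, and wild-type mice carry both genes intact. Keap1-KD (knockdown) mice have less Keap1 in the whole body. Keap1-HKO (hepatocyte knockout) mice came from a cross of Keap1-KD with AlbCre+ mice, in which the albumin promoter drives Cre in hepatocytes, so that the other cells of these livers keep the knockdown. All values are on the log2 scale of intensity, as deposited after gcRMA. Probe sets were kept by the study when at least 1 genotype exceeded an intensity of 100, which is 6.64 on the log2 scale. Whole liver was measured, so that fewer cells of a type and less RNA per cell cannot be told apart.

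Nrf2 is a transcription factor that answers oxidants and electrophiles. Keap1 holds it in the cytoplasm and hands it to the proteasome, and when Keap1 is lost or modified Nrf2 enters the nucleus, pairs with a small Maf protein and binds the antioxidant response element (ARE) of its target genes. In liver its best known targets make glutathione, supply NADPH and conjugate or export drugs.

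The core of the ARE, TGACNNNGC, was searched on both strands of promoter windows that run from 250 bases before to 50 bases after each gene's start, in the RefSeq table of build GRCm38.p6. Of the 129 genes, 106 matched a window, and 23 of these held the core in at least 1 window (21.7%). The share was 17.5% among 4820 matched genes measured on the arrays and 14.0% among all 27025 genes of the table. On the gene's own strand alone, 11 genes held it (10.4%, against 9.19% of the measured genes). A fully spelled form of the same length, TGACTCAGC (a case of the core) or TGAGTCAGC (not a case of it), was searched on both strands. It was present in 3 genes, Pir, Hfe and Tbcel (2.83%, against 1.12% of the measured genes). Windows around the core are printed for Ugdh, Pir, Hexa and Slc35d1, whose mRNA is described array by array further on, and for Hfe, which holds the fully spelled form. They are cut from chr5:65435926-65436014 (minus strand), chrX:164269181-164269265 (plus), chr9:59539369-59539457 (plus), chr4:103215229-103215317 (minus) and chr13:23710873-23710961 (minus), read 5′ to 3′ on the strand of the gene, with 1 core of each window in capitals.
Ugdh: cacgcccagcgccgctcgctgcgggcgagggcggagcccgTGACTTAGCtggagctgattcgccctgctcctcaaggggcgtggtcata
Pir: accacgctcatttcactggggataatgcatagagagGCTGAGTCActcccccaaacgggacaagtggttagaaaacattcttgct
Hexa: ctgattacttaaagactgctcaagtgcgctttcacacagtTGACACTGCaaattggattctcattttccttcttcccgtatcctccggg
Slc35d1: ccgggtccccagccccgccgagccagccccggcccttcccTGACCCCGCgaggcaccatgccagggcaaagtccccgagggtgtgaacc
Hfe: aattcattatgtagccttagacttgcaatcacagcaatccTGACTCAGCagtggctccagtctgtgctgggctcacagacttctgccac
Counted from the gene's start, the first printed base of the core lay at −132 in Ugdh, −214 in Pir, −131 in Hexa, −101 in Slc35d1 and −67 in Hfe. In the Pir window the core stands on the opposite strand and reads as its reverse complement. The Ugdh window holds a second core on the opposite strand, GCGTGGTCA from −94, which is printed in lower case. A match is a description of these letters and not of a bound site.

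The targeted genes followed the genotypes. Nfe2l2, which encodes Nrf2, read 2.29 to 2.46 in Nrf2-null livers and 7.93 to 9.03 on the other 9 arrays. Keap1 read 7.67 to 8.07 in Nrf2-null and wild-type, 5.59 to 5.92 in Keap1-KD and 3.34 to 3.39 in Keap1-HKO livers. The hepatocyte markers, 6 of 8 measured, had medians of 15.04 to 15.32 on the Keap1-HKO arrays, below the 15.45 to 15.62 of the other 9 arrays. The first Keap1-HKO array and the first Nrf2-null array differed most from the other arrays of their genotype, with mean absolute deviations over all genes of 0.60 and 0.39 against 0.10 to 0.37 for the other 10 arrays. Of the 129 genes, 94 were highest on Keap1-HKO replicate 1 among the 3 Keap1-HKO arrays, and 81 were highest on Nrf2-null replicate 1 among the 3 Nrf2-null arrays. Without both arrays the rule found 154 genes, 114 of them among the 129. The 15 that were lost are Zbtb16, Limd2, Nat8, Calr3, Srm, Fitm2, Rexo4, Pef1, Fam162a, Orm2, Mnt, Alg9, Pi4ka, Cryzl2 and Pcsk6.

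Over the 129 genes the Keap1-HKO mean exceeded the Nrf2-null mean by 0.80 to 7.32 on the log2 scale, with a median of 1.26. It was at least 1 in 100 genes and at least 2 in 26. The median over all 5856 genes was −0.05. The 3 steps were not alike in size. Their medians were 0.38 from Nrf2-null to wild-type, 0.29 from wild-type to Keap1-KD and 0.67 from Keap1-KD to Keap1-HKO, and the last was 0.49 without Keap1-HKO replicate 1. The last step was the largest of the 3 in 78 genes, the first in 40 and the middle in 11. The steps were often small beside the spread among mice: in 92 genes at least 1 of the 3 was under the SD pooled within genotypes, whose median was 0.31 for these genes.

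Single arrays of neighbouring genotypes overlapped in most of the 129 genes. All 3 wild-type arrays lay above all 3 Nrf2-null arrays in 50 genes, which 8.76% of all genes did. Without the arrays that stood apart this held for 83 of the 129 and for 16% of all genes. All Keap1-KD arrays lay above all wild-type arrays in 44 genes (7.02% of all genes), and all Keap1-HKO arrays above all Keap1-KD arrays in 82 (9.22% of all genes, and 86 of the 129 against 15.5% of all genes without the arrays that stood apart). Since the rule used these values, nothing is read from the distance to the shares of all genes. At every step the arrays were separate in 15 genes, namely Cd36, Tceal8, Ugdh, Pir, Entpd5, Hexa, Mvp, Slc35d1, Mlec, Coq7, S100a10, Prmt3, Mmp19, Anxa7 and Tex2. The share of all genes separate at every step was 0.546%. In 21 genes neighbouring genotypes were separate at no step. In 52 genes, leaving out some single array turned the sign of at least 1 step between neighbouring genotypes. The plot of all 129 genes by array shows this.

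**Figure D1:**
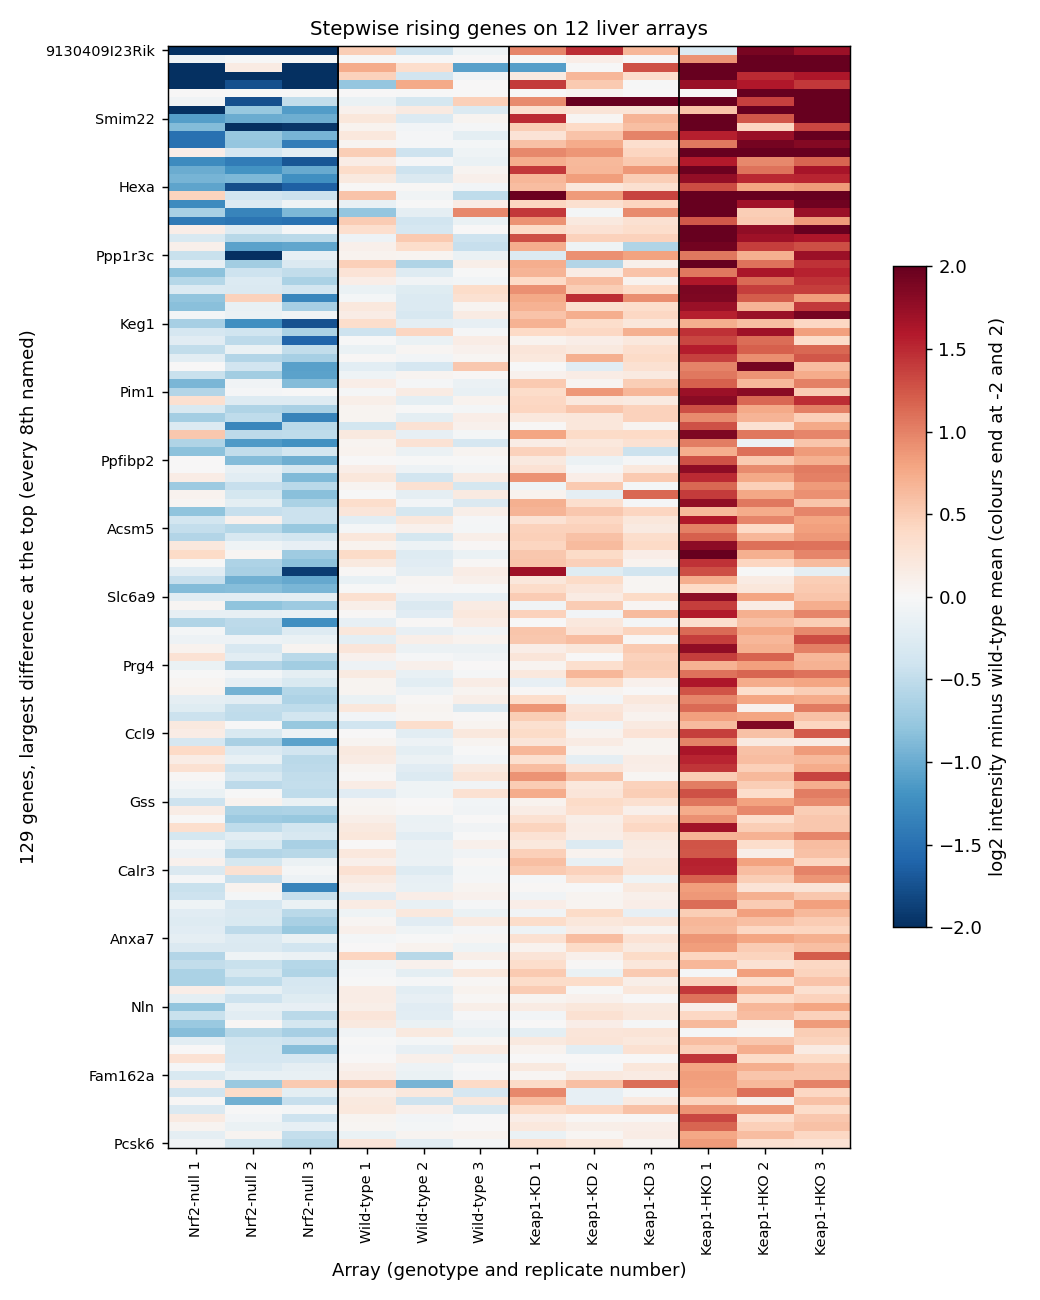
Log2 intensity of each of the 129 genes (rows, largest Keap1-HKO minus Nrf2-null difference at the top, every 8th gene named) on each of the 12 arrays (columns), as the difference from that gene's wild-type mean, with colours that end at −2 and 2. Rows turn from blue in Nrf2-null to red in Keap1-HKO livers by the rule. Of the 129 genes, 94 were highest on Keap1-HKO replicate 1 among the Keap1-HKO columns.

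The genes are grouped here by what their products are known to do, in groups drawn up after the values were seen. In glucuronate, glycogen and sugar-nucleotide metabolism 4 of 6 genes took their largest step between Nrf2-null and wild-type mice. Ugdh, which oxidizes UDP-glucose to the UDP-glucuronic acid that glucuronidation consumes, read 10.07, 10.79 and 10.18 in Nrf2-null, 11.61, 11.55 and 11.53 in wild-type, 12.15, 12.31 and 11.90 in Keap1-KD and 12.62, 13.48 and 13.39 in Keap1-HKO livers. The 4 genotypes did not overlap, although Keap1-HKO replicate 1 lay well below the other Keap1-HKO arrays. On the scale of mean un-logged intensity, Ugdh mRNA was at 44.1% ± 7.17 of the wild-type level for Nrf2-null, 148% ± 12.1 for Keap1-KD and 314% ± 53.2 for Keap1-HKO mice (SEM, n = 3, for this and all such levels, in which the wild-type mean counts as free of error). Slc35d1, which carries UDP-glucuronic acid into the endoplasmic reticulum, read 10.54, 10.16 and 10.08 in Nrf2-null, 10.76, 10.69 and 10.78 in wild-type, 10.96, 11.45 and 11.12 in Keap1-KD and 12.11, 11.67 and 11.99 in Keap1-HKO livers. Entpd5, which breaks down the UDP left in that lumen, read 9.90, 9.94 and 9.60 in Nrf2-null, 11.03, 10.54 and 10.93 in wild-type, 11.49, 11.67 and 11.33 in Keap1-KD and 12.59, 12.33 and 12.35 in Keap1-HKO livers. Both were separate at every step as well, and the Keap1-HKO level was 228% ± 19.9 of wild-type for Slc35d1 and 300% ± 17.6 for Entpd5. A second Slc35d1 probe set had means of 6.26, 6.22, 6.69 and 7.15 from Nrf2-null to Keap1-HKO. There the wild-type mean did not exceed the Nrf2-null mean, and the outer genotypes differed by 0.90 in place of 1.67.

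Cryl1, an enzyme that oxidizes gulonate made from glucuronate, read 6.18, 5.99 and 6.18 in Nrf2-null, 7.55, 6.76 and 7.23 in wild-type, 8.59, 7.85 and 8.05 in Keap1-KD and 9.14, 8.26 and 8.82 in Keap1-HKO livers. All Nrf2-null arrays lay under an intensity of 100, and the Keap1-KD and Keap1-HKO arrays overlapped. The Keap1-HKO mean was at least 4.28-fold the Nrf2-null mean, a bound in which each Nrf2-null array is counted at 100 where it reads lower. In glycogen metabolism, Gbe1, the branching enzyme, read 9.35, 9.76 and 9.68 in Nrf2-null, 10.44, 9.91 and 10.16 in wild-type, 10.85, 10.31 and 10.75 in Keap1-KD and 11.22, 11.81 and 11.71 in Keap1-HKO livers. Wild-type and Keap1-KD arrays overlapped while the outer steps were separate, and Keap1-HKO mice had 267% ± 31.6 of the wild-type level. Ppp1r3c, which brings a phosphatase to glycogen, had the same order of means with 2.12 between the outer genotypes and an SD of 1.15 in Nrf2-null mice (n = 3). In a list of UDP-sugar and glycogen genes, Ugdh, Gbe1 and Slc35d1 met the rule of 15 measured, the median Keap1-HKO minus Nrf2-null difference over the list was 0.53, and 9 of the 15 had a difference above 0. For this and the later lists, 2.2% of all genes met the rule and 2593 of 5856 had a difference above 0. The lists were drawn up with earlier results of these data known, and nothing is read from the distance.

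Of 10 genes grouped loosely under thiol, NADPH and redox metabolism, 7 took their largest step between Keap1-KD and Keap1-HKO mice. Gsr, which regenerates glutathione from its disulfide, read 9.37, 9.32 and 9.19 in Nrf2-null, 9.55, 9.22 and 9.36 in wild-type, 9.59, 10.04 and 9.86 in Keap1-KD and 10.46, 10.54 and 10.46 in Keap1-HKO livers. Nrf2-null and wild-type arrays overlapped, while Keap1-HKO arrays lay close together and above the rest. Its level was 94.1% ± 3.43 of the wild-type level for Nrf2-null, 137% ± 12.3 for Keap1-KD and 215% ± 4.28 for Keap1-HKO mice. Gss, the second enzyme of glutathione synthesis, read 7.81, 8.30 and 8.09 in Nrf2-null, 8.27, 8.23 and 8.18 in wild-type, 8.30, 8.61 and 8.55 in Keap1-KD and 9.29, 9.03 and 9.17 in Keap1-HKO livers. The lowest wild-type array lay below the highest Nrf2-null array, and the later steps were separate. Tkt, the transketolase of the pentose phosphate pathway, read 13.57, 13.07 and 13.36 in Nrf2-null, 13.85, 13.44 and 13.55 in wild-type, 14.17, 13.89 and 14.06 in Keap1-KD and 14.74, 14.38 and 14.58 in Keap1-HKO livers. Here too only Nrf2-null and wild-type overlapped, and Keap1-HKO mice had 193% ± 13.8 of the wild-type level.

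Msra, which repairs oxidized methionine, read 10.40, 10.10 and 9.85 in Nrf2-null, 10.72, 10.53 and 10.60 in wild-type, 10.52, 10.76 and 10.67 in Keap1-KD and 11.25, 11.03 and 11.04 in Keap1-HKO livers. Wild-type and Keap1-KD arrays were intermingled between separate outer genotypes. Ptgr1, a reductase of prostaglandins and reactive alkenals, read 5.68, 5.42 and 5.44 in Nrf2-null, 5.87, 6.51 and 5.56 in wild-type, 7.27, 6.44 and 6.45 in Keap1-KD and 8.05, 7.67 and 7.60 in Keap1-HKO livers, so that Nrf2-null and wild-type arrays all lay under an intensity of 100 and only the last step was separate. Pir, an iron-binding nuclear protein whose promoter window holds the fully spelled ARE form, read 6.92, 6.78 and 6.47 in Nrf2-null, 8.33, 8.15 and 8.05 in wild-type, 8.90, 8.83 and 8.69 in Keap1-KD and 9.76, 9.13 and 9.34 in Keap1-HKO livers. No 2 genotypes of Pir overlapped, and its level was 36.7% ± 3.28 of the wild-type level for Nrf2-null, 155% ± 6.56 for Keap1-KD and 238% ± 31.3 for Keap1-HKO mice. The rest of the group were Vnn1, Vat1, Srm and Cryzl2, with differences of 0.81 to 1.05 between the outer genotypes. In the lists of these pathways, Tkt met the rule of 12 measured genes of NADPH supply (median difference 0.41, with 10 of 12 above 0) and Gsr, Gss and Msra of 27 thiol genes (median −0.32, with 9 of 27 above 0).

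Of 5 genes of heme, iron and other metals, 4 took their largest step between Keap1-KD and Keap1-HKO mice. Blvrb, a reductase of biliverdin and flavins, read 11.13, 10.66 and 10.81 in Nrf2-null, 11.50, 10.59 and 10.92 in wild-type, 11.97, 11.88 and 11.42 in Keap1-KD and 14.11, 13.22 and 13.48 in Keap1-HKO livers. Keap1-HKO arrays lay far above all others, and each remaining genotype overlapped with its neighbour. Slc48a1, which moves heme out of endosomes and lysosomes, read 7.26, 6.85 and 7.09 in Nrf2-null, 7.45, 6.78 and 7.12 in wild-type, 7.50, 7.41 and 7.47 in Keap1-KD and 9.96, 8.88 and 9.14 in Keap1-HKO livers. Only Keap1-HKO arrays were separate, at a level of 480% ± 114 of wild-type against 125% ± 2.42 in Keap1-KD mice. A second Slc48a1 probe set had means of 5.57, 6.22, 6.48 and 8.62 in the same order. Hfe, which acts upstream of hepcidin, took its largest step between Nrf2-null and wild-type mice (0.69 of 1.14), while the mitochondrial iron carrier Slc25a37 and the zinc importer Slc39a4 had differences of 0.85 and 1.41. Of 22 measured iron and heme genes, Blvrb and Slc48a1 met the rule, and the median difference of the list was −0.10, with 9 of 22 above 0.

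**Figure D2:**
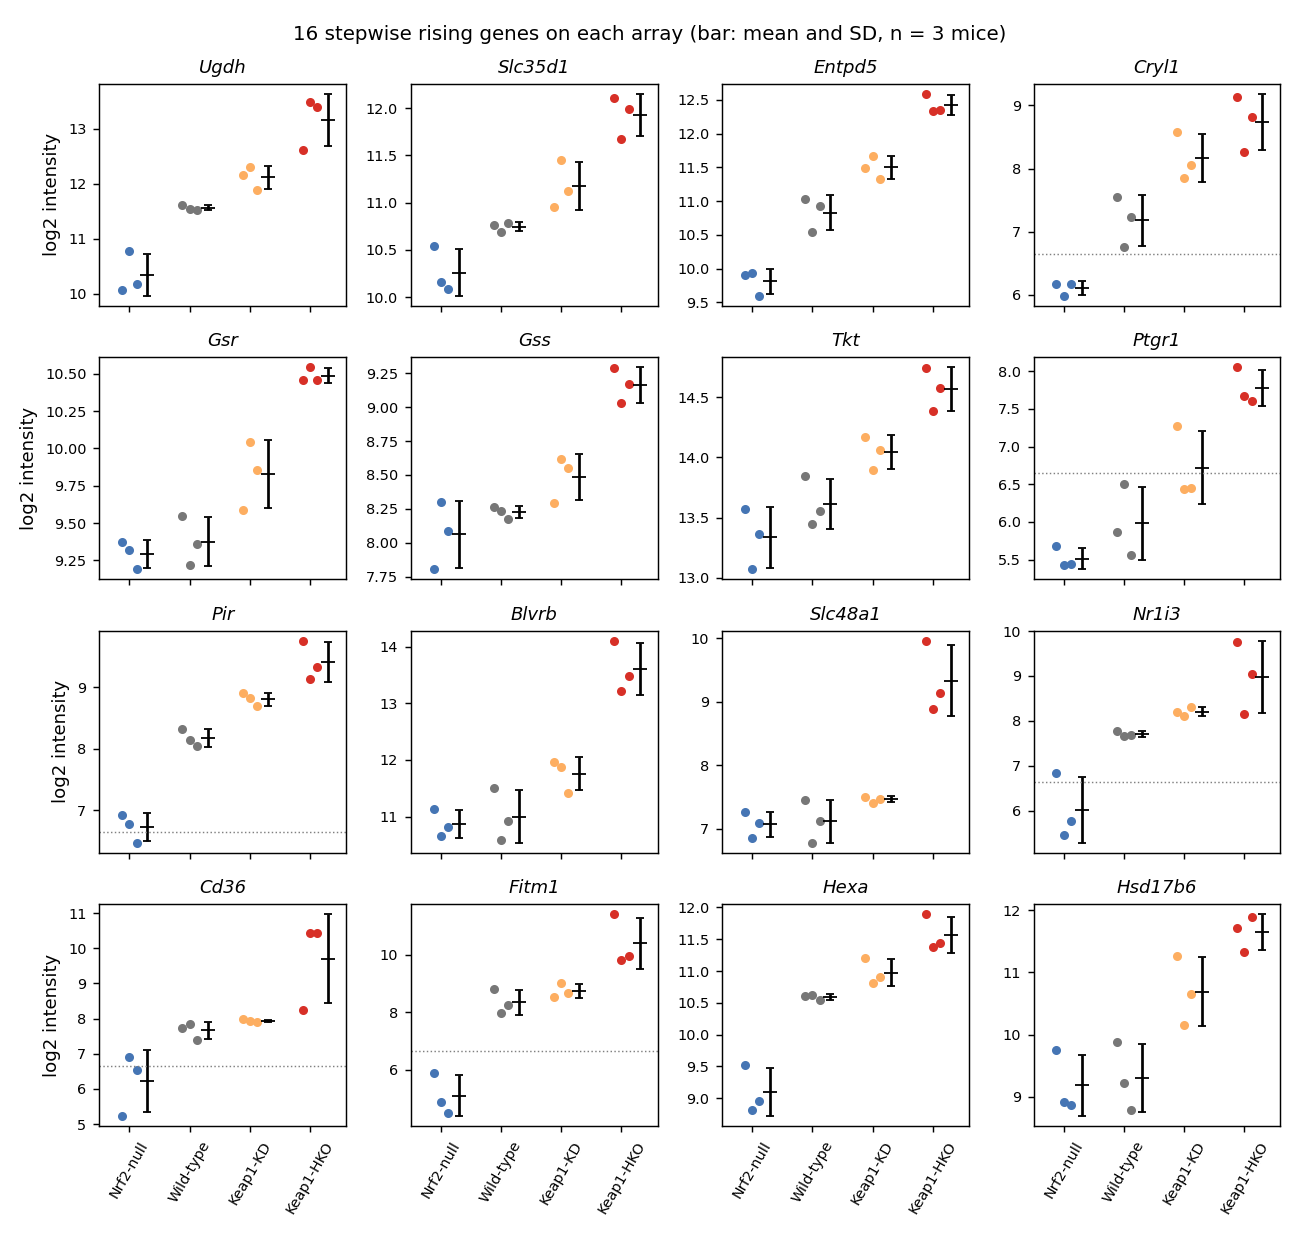
Log2 intensity on each array (points, 3 mice per genotype) for 16 of the 129 genes, with the mean and SD of each genotype beside the points and, where it falls inside the axis, a dotted line at an intensity of 100. Each panel has its own axis that does not start at 0. Ugdh, Slc35d1, Entpd5, Pir, Cd36 and Hexa show 4 separate genotypes, whereas Blvrb and Slc48a1 are apart in Keap1-HKO mice alone.

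Among 18 genes grouped loosely under drugs, steroids, retinoids, amines and related small molecules, Dct had the largest difference. Dct, known for melanin synthesis in pigment cells, read 5.89, 7.32 and 4.71 in Nrf2-null, 8.31, 9.84 and 9.10 in wild-type, 10.48, 9.60 and 9.07 in Keap1-KD and 10.81, 10.69 and 10.49 in Keap1-HKO livers. Its Nrf2-null arrays were spread widely and lay below every other array, its Keap1-HKO arrays lay above every other, and wild-type and Keap1-KD arrays overlapped. The Keap1-HKO mean was at least 13.9-fold the Nrf2-null mean. Hsd17b6, a steroid dehydrogenase, read 9.75, 8.92 and 8.88 in Nrf2-null, 9.88, 9.23 and 8.79 in wild-type, 11.26, 10.16 and 10.65 in Keap1-KD and 11.72, 11.33 and 11.89 in Keap1-HKO livers. Nrf2-null and wild-type arrays covered the same range, and Keap1-KD and Keap1-HKO mice reached 262% ± 57.8 and 491% ± 54.5 of the wild-type level.

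Flavin monooxygenase Fmo1 read 10.36, 10.51 and 10.39 in Nrf2-null, 10.94, 10.51 and 10.70 in wild-type, 11.01, 10.86 and 10.94 in Keap1-KD and 11.40, 11.42 and 11.69 in Keap1-HKO livers. The sulfotransferase Sult1b1 read 7.80, 7.88 and 7.17 in Nrf2-null, 8.23, 8.43 and 8.54 in wild-type, 8.41, 8.61 and 8.36 in Keap1-KD and 8.74, 8.98 and 8.89 in Keap1-HKO livers. In both, the outer steps were separate, barely so for Fmo1 at the first, and wild-type overlapped with Keap1-KD. Nat8, an N-acetyltransferase of cysteine conjugates, read 9.35, 8.93 and 7.67 in Nrf2-null, 9.59, 9.39 and 9.72 in wild-type, 11.27, 9.33 and 9.19 in Keap1-KD and 10.86, 9.55 and 9.38 in Keap1-HKO livers, so that replicate 1 was by far the highest array of Keap1-KD and of Keap1-HKO livers, the means of both genotypes were 9.93, and they differed by 0.0016. On un-logged intensity the order of these genotypes turned, with 162% ± 81.2 of the wild-type level for Keap1-KD and 143% ± 50.1 for Keap1-HKO mice.

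Rdh16, a retinol dehydrogenase, read 8.55, 7.56 and 8.07 in Nrf2-null, 8.72, 8.11 and 8.74 in wild-type, 9.14, 8.35 and 8.70 in Keap1-KD and 8.96, 8.62 and 9.10 in Keap1-HKO livers. Aldh5a1, the succinic semialdehyde dehydrogenase, read 6.13, 6.41 and 6.30 in Nrf2-null, 6.91, 7.17 and 6.84 in wild-type, 6.79, 7.21 and 7.23 in Keap1-KD and 6.95, 7.02 and 7.47 in Keap1-HKO livers. Neighbouring genotypes of Rdh16 all overlapped, and in Aldh5a1 only Nrf2-null mice were apart. The others were Srd5a3, Keg1, Mocos, Gch1, Ddc, Ddah1, Bdh2, Coq7, Rarres1, Thnsl2 and Dglucy, with differences of 1.06 (Bdh2) to 1.79 (Keg1). Among them Gch1 and Ddc, which act in the synthesis of tetrahydrobiopterin and of amine transmitters, had 221% ± 31.5 and 187% ± 14.6 of the wild-type level in Keap1-HKO mice. Ptgr1, Aldh5a1 and Rdh16 met the rule of 28 measured aldehyde and alcohol dehydrogenases and reductases (median difference −0.01, with 14 above 0). Nat8, Acsm1, Sult1b1 and Fmo1 met it of 28 other phase-I and phase-II enzymes (median −0.17, with 11 above 0).

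In lipid handling, Cd36, a fatty acid receptor of the plasma membrane, read 5.22, 6.91 and 6.54 in Nrf2-null, 7.75, 7.85 and 7.40 in wild-type, 7.98, 7.92 and 7.92 in Keap1-KD and 8.24, 10.44 and 10.44 in Keap1-HKO livers. Genotypes did not overlap, but Keap1-HKO replicate 1 lay only a little above Keap1-KD and the other Keap1-HKO arrays far above it. The skeletal muscle marker list (9 of 12 measured) had medians of 11.06 and 9.82 on those other Keap1-HKO arrays and 3.14 on replicate 1. It had 10.39 on wild-type replicate 2, where Cd36 was the highest of the wild-type arrays. The part of muscle RNA in the values of Cd36 was not tested. Fitm1, which helps partition triglyceride into lipid droplets, read 5.89, 4.90 and 4.51 in Nrf2-null, 8.80, 7.97 and 8.26 in wild-type, 8.53, 9.00 and 8.69 in Keap1-KD and 11.42, 9.83 and 9.96 in Keap1-HKO livers. Every Nrf2-null array was under an intensity of 100 and the outer steps were separate, so that Keap1-HKO mice were at least 13.5-fold above Nrf2-null mice. Fitm1 is also known from skeletal muscle, whose marker list (9 of 12 measured) had a median of 3.14 on Keap1-HKO replicate 1, where Fitm1 was highest, of 11.06 and 9.82 on the other Keap1-HKO arrays and of 10.39 on wild-type replicate 2, where Fitm1 was the lowest of the wild-type arrays. The part of muscle RNA in the values of Fitm1 was not tested either.

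Acsm1, which activates medium-chain and aromatic acids for glycine conjugation, read 11.25, 10.75 and 10.69 in Nrf2-null, 11.56, 11.75 and 11.82 in wild-type, 11.94, 12.10 and 11.75 in Keap1-KD and 12.44, 11.87 and 12.20 in Keap1-HKO livers. Its Nrf2-null arrays were separate and the other 3 genotypes overlapped. The other lipid genes were Fitm2, Cds2, Chpt1, Plpp5, Acsm5, Acad10, Pi4ka, Tex2, Slc25a17, Gpld1, Them7 and Anxa7, with 0.82 (Pi4ka) to 1.67 (Slc25a17). Cds2, which makes the CDP-diacylglycerol precursor of phosphatidylinositol, and Slc25a17, a peroxisomal carrier, were at 282% ± 37.3 and 248% ± 23.8 of wild-type in Keap1-HKO mice. Chpt1, the cholinephosphotransferase, had 2 of its 3 other probe sets with means that were not in rising order. Cds2 also had further probe sets with wild-type means below Nrf2-null means (7.51 against 7.69, 7.70 against 7.78 and 5.09 against 5.31). Another Cds2 probe set had means in rising order. Of 34 measured genes of lipid synthesis, storage and oxidation Cd36 alone met the rule, and the median difference of that list was −0.50, with 8 of 34 above 0.

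Among 20 transcription and signalling regulators, Nr1i3 and Pparg are nuclear receptors. Nr1i3, the constitutive androstane receptor (CAR) of drug metabolism, read 6.84, 5.45 and 5.76 in Nrf2-null, 7.78, 7.66 and 7.69 in wild-type, 8.20, 8.11 and 8.31 in Keap1-KD and 9.75, 8.14 and 9.05 in Keap1-HKO livers. Nrf2-null, wild-type and Keap1-KD mice did not overlap, and Keap1-HKO arrays spread from inside the Keap1-KD range to well above it. The Nrf2-null mean was under an intensity of 100, and the Keap1-HKO mean was at least 4.83-fold above it. Levels were 141% ± 5.91 of wild-type for Keap1-KD and 266% ± 80.0 for Keap1-HKO mice. Pparg, which drives fat storage programs, read 4.54, 4.49 and 4.47 in Nrf2-null, 6.46, 5.57 and 5.83 in wild-type, 6.86, 6.15 and 6.25 in Keap1-KD and 7.19, 6.48 and 6.81 in Keap1-HKO livers. Only 1 Keap1-KD and 2 Keap1-HKO arrays of Pparg exceeded an intensity of 100, which left a bound of at least 1.14-fold, and Nrf2-null arrays were apart from the rest. Trib3, a pseudokinase induced by endoplasmic reticulum stress, read 5.51, 3.81 and 5.08 in Nrf2-null, 5.43, 5.22 and 6.05 in wild-type, 6.51, 7.67 and 7.71 in Keap1-KD and 9.18, 6.93 and 8.77 in Keap1-HKO livers, with wild-type mice under an intensity of 100, Keap1-KD and Keap1-HKO arrays overlapping, and a Keap1-HKO mean at least 3.14-fold that of Nrf2-null mice. Of 18 measured liver transcription factors Nr1i3 and Pparg met the rule (median difference −0.33, with 6 above 0). On a list drawn up around Nrf2, Trib3 and Entpd5 met it of 13 measured (median 0.41, with 10 above 0). That list holds the targeted genes Nfe2l2 and Keap1, and a place on it does not make a gene a regulator of Nrf2.

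Tceal8, an elongation factor A-like protein, read 6.81, 7.55 and 7.37 in Nrf2-null, 8.52, 8.29 and 8.11 in wild-type, 8.59, 8.88 and 9.31 in Keap1-KD and 9.87, 10.03 and 10.39 in Keap1-HKO livers. Genotypes were separate at every step and Keap1-HKO mice had 347% ± 37.7 of the wild-type level. Fkbp5, a co-chaperone of steroid receptors, had means of 6.93 in Nrf2-null and 7.01 in wild-type mice, with overlapping arrays, and stood at 329% ± 23.2 of wild-type in Keap1-HKO mice. The remaining regulators were Zbtb16, Pim1, Mnt, E2f6, Eaf1, Phf8, Smyd2, Prmt3, Rnd2, Arhgef16, Akip1, Hnf4aos, Arpp19, Tsacc and Limd2, with differences of 0.83 (Mnt) to 2.02 (Rnd2). In wild-type mice 8 of the 20 had a mean below 6.64, that is, an intensity of 100.

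Lysosomal Hexa, the alpha subunit of beta-hexosaminidase, read 9.53, 8.81 and 8.96 in Nrf2-null, 10.61, 10.62 and 10.54 in wild-type, 11.21, 10.82 and 10.90 in Keap1-KD and 11.90, 11.38 and 11.44 in Keap1-HKO livers. All 4 genotypes were apart, and the first step of 1.49 was the largest. Hexa was the only gene of 27 measured on the lysosome list that met the rule (median difference −0.09, with 11 of 27 above 0). Beside it stood Plbd2, Creg1, Ubap1 and the vault protein Mvp, with differences of 1.25 (Plbd2) to 1.86 (Mvp). Mvp was separate at every step. Its Nrf2-null and wild-type means were under an intensity of 100, and the Keap1-HKO mean was at least 2.61-fold the Nrf2-null mean.

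The secretory pathway held 12 genes, none of them among the 20 largest differences. They were Creld1, Creld2, Mlec, Manf, Syvn1, Sec31a, Tmed3, Ero1b, Calr3, Alg9, Pcsk6 and Grina, at 0.80 (Pcsk6) to 1.73 (Creld1), and the last step was the largest in 9 of them. Creld2 and Manf, which are induced by endoplasmic reticulum stress, had Keap1-HKO levels of 235% ± 65.9 and 139% ± 15.5 of wild-type. The Keap1-KD level of Creld2 was 99.1% ± 10.8 of wild-type, although its log2 mean was higher than in wild-type by 0.025. Syvn1, the ubiquitin ligase of endoplasmic reticulum degradation, stood at 167% ± 15.7. A list of chaperone, ubiquitin and autophagy genes outside the families left out had 35 measured genes (median difference 0.03, with 20 above 0). A list of growth, stress and cell cycle genes had 14 (median −0.60, with 4 above 0). No gene on either list met the rule. The lists do not hold every gene of these roles. Syvn1 and the co-chaperone Fkbp5 met the rule and are not on the chaperone list. Likewise Cks1b, Mcm6 and Trib3 met it and are not on the growth list.

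Of 7 genes of carriers or their regulators in the plasma membrane and other membranes, 6 took their largest step between Keap1-KD and Keap1-HKO mice. Slc20a1, a sodium-phosphate cotransporter, read 5.52, 6.51 and 6.70 in Nrf2-null, 6.64, 6.78 and 6.93 in wild-type, 7.21, 7.11 and 7.21 in Keap1-KD and 8.85, 8.46 and 8.73 in Keap1-HKO livers. Keap1-HKO arrays lay far above all others, and the difference between the outer genotypes was 1.99 in place of 2.44 without the arrays that stood apart. The glycine transporter Slc6a9, the glucose transporter Slc2a1, the monocarboxylate transporter Slc16a7, Slc22a18, Ano10 and the mitochondrial calcium uniporter regulator Micu2 differed by 0.94 (Micu2) to 1.33 (Ano10) between the outer genotypes. Counted over all groups, 10 of 120 measured Slc genes met the rule (8.33%, against 2.2% of all genes), and the median difference over the 120 was 0.01. The prefix was chosen with results of these data known, and nothing is read from the distance.

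Secreted and surface proteins were Ccl9, Orm2, A2ml1, Prg4, Ccn1, Spint2, Mmp19, Nt5e and S100a10, at 0.84 (Orm2) to 2.20 (A2ml1). A2ml1, an alpha-2-macroglobulin-like protease inhibitor, stood at 287% ± 41.9 of wild-type in Keap1-HKO mice with Keap1-KD at 106% ± 28.9. S100a10, the partner of annexin A2, was separate at every step, at 57.2% ± 9.2 of the wild-type level for Nrf2-null, 123% ± 6.98 for Keap1-KD and 163% ± 15.9 for Keap1-HKO mice. Genes of the cell cycle, of DNA and RNA and of tubulin were Cks1b, Mcm6, Ercc3, Rnaseh2b, Rexo4, Tubb4b, Tbce and Tbcel, at 0.88 (Rexo4) to 1.40 (Cks1b). Tbcel, a tubulin-binding protein with the fully spelled ARE form in 1 of its promoter windows, had 54.4% ± 0.749 of the wild-type level in Nrf2-null mice and 131% ± 7.96 in Keap1-HKO mice.

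Of the genes with no role given here, 9130409I23Rik had the largest difference on the values as deposited. It read 2.79, 2.62 and 2.58 in Nrf2-null, 9.37, 8.45 and 8.79 in wild-type, 9.85, 10.35 and 9.54 in Keap1-KD and 8.60, 10.76 and 10.57 in Keap1-HKO livers. Nrf2-null arrays were at background and wild-type arrays well expressed, while Keap1-HKO replicate 1 lay within the wild-type range and the other 2 Keap1-HKO arrays above Keap1-KD. As deposited, the wild-type to Nrf2-null difference was 6.21 of 7.32. With every value under an intensity of 100 raised to 100, the difference between the outer genotypes was 3.34, below that of Prss2 (4.04), Dct (3.80), Fitm1 (3.76) and Serpinb1a (3.74). The Keap1-HKO mean was at least 10.1-fold the Nrf2-null mean. Smim22, a small membrane protein, read 6.83, 6.93 and 6.96 in Nrf2-null, 8.16, 7.65 and 7.98 in wild-type, 9.42, 7.98 and 8.61 in Keap1-KD and 10.44, 9.18 and 10.13 in Keap1-HKO livers. Its Nrf2-null arrays were separate, and neighbouring genotypes above them overlapped. 9030619P08Rik read 4.64, 3.97 and 4.40 in Nrf2-null, 4.52, 5.10 and 6.25 in wild-type, 6.71, 5.26 and 6.23 in Keap1-KD and 7.47, 5.78 and 7.02 in Keap1-HKO livers, mostly under an intensity of 100, with overlap at every step. Ppfibp2, Tmem62, Tmem51, Tmem176a, C2cd2, Nln, Pef1 and Fam162a completed the group, at 0.85 (Fam162a) to 1.45 (Ppfibp2).

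Prss2, Sycn and Serpinb1a met the rule through Keap1-HKO livers alone. Prss2, a trypsinogen of the exocrine pancreas, read 2.56, 2.61 and 2.62 in Nrf2-null, 2.62, 2.62 and 2.63 in wild-type, 2.62, 2.75 and 2.64 in Keap1-KD and 3.52, 14.25 and 11.17 in Keap1-HKO livers. Sycn, a protein of pancreatic zymogen granules, read 2.50, 2.49 and 2.50 in Nrf2-null, 2.50, 2.49 and 2.50 in wild-type, 2.50, 2.55 and 2.50 in Keap1-KD and 2.51, 11.17 and 7.71 in Keap1-HKO livers. Both genes were at background on the 9 arrays of the other genotypes and high on Keap1-HKO replicates 2 and 3 alone. Steps at background level, such as 0.0025 for Sycn between Nrf2-null and wild-type, fixed the order of the other means. The pancreas acinar marker list, with 9 of 14 genes measured, moved on the same arrays. Its median was 14.25 and 11.17 on Keap1-HKO replicates 2 and 3 and 2.29 to 2.61 on the other 10, and in each of Nrf2-null, wild-type and Keap1-KD mice 8 of the 9 were under an intensity of 100 on all arrays. The log2 of the summed list intensity ran from 10.12 to 10.34 in Nrf2-null, 9.40 to 10.34 in wild-type, 8.89 to 9.43 in Keap1-KD and 8.92 to 17.38 in Keap1-HKO livers. Prss2 is itself on that list. The part of pancreatic RNA in the values of Prss2 and Sycn was not tested.

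Serpinb1a, an inhibitor of neutrophil elastase and related proteases, read 2.54, 5.31 and 2.61 in Nrf2-null, 5.89, 5.49 and 4.06 in wild-type, 4.05, 5.13 and 6.43 in Keap1-KD and 11.17, 9.00 and 10.98 in Keap1-HKO livers. Nrf2-null, wild-type and Keap1-KD arrays were all under an intensity of 100 and overlapped, and the gene was high on all 3 Keap1-HKO arrays, with the highest value on replicate 1, where the pancreas list was at background. The part of pancreatic RNA in the values of Serpinb1a was not tested. The Keap1-HKO mean was at least 13.4-fold the Nrf2-null mean. A second Serpinb1a probe set had means of 3.30, 3.76, 4.01 and 9.29.

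**Figure D3:**
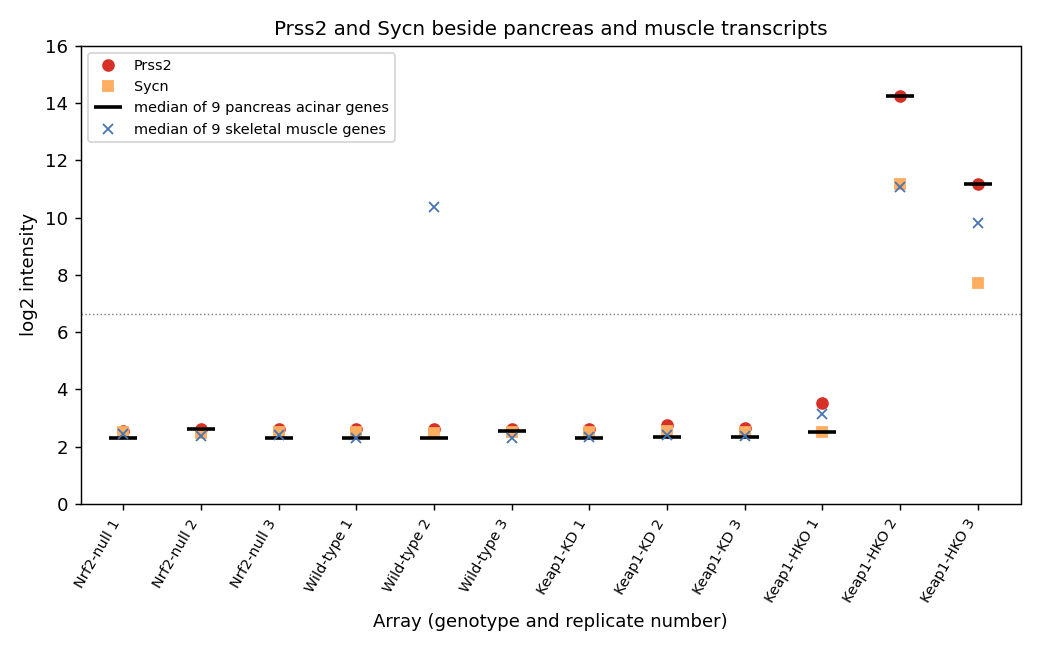
Log2 intensity of Prss2 (circles) and Sycn (squares) on each of the 12 arrays, with the median of 9 pancreas acinar genes (bars) and of 9 skeletal muscle genes (crosses), and a dotted line at an intensity of 100. Prss2 and Sycn are above the line on Keap1-HKO replicates 2 and 3 alone, where the pancreas median reads 14.25 and 11.17, and the muscle median is also high on wild-type replicate 2 (10.39).

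The rule asked that each step be above 0 but not which of them be larger. It used the same group means, so that the counts over the 129 genes describe them and support nothing further. In limma, the difference between the step from Keap1-KD to Keap1-HKO and the step from Nrf2-null to wild-type was taken in 1 fit of the 12 arrays, with Benjamini-Hochberg adjustment over 5856 genes. The last step was larger in 86 of the 129 genes and in 52.6% of all genes. In 23 of the 129 the mean exceeded an intensity of 100 in Keap1-HKO mice alone, so that the filter on low values itself favoured a larger last step. Of the other 106 the last step was larger in 67, against 51.4% of all genes without such genes. After adjustment none of the 129 passed with a larger last step (0.205% of all genes did) and 1 passed with a larger first step (0.188% of all genes did). That gene was 9130409I23Rik, whose last step was smaller than its first by a difference of −6.14 (SE 0.70, adjusted p = 0.00227, limma). Counting the Nrf2-null arrays at an intensity of 100 ended this call (adjusted p = 0.322), and over 23 settings its adjusted p ran from 4.36e-05 to 0.322. At an unadjusted p under 0.05, 16 of the 129 had a larger last step (5.5% of all genes) and 9 a larger first step (4.76% of all genes). Of the 16, 3 were among the 23 genes over an intensity of 100 in Keap1-HKO mice alone.

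The genes with the next lowest p did not pass in this fit, although Slc48a1, Fkbp5, Blvrb, Pir and Tbcel each passed under at least 1 other setting. Slc48a1 had a last step larger by 1.82 (SE 0.38, adjusted p = 0.0936), Fkbp5 by 1.08 (SE 0.23, adjusted p = 0.101), Blvrb by 1.71 (SE 0.41, adjusted p = 0.162) and Cds2 by 1.14 (SE 0.29, adjusted p = 0.212), in the limma fit. In Tbcel and Pir the first step was the larger, with differences of −0.71 (SE 0.18, adjusted p = 0.183) and −0.85 (SE 0.26, adjusted p = 0.292). Without the arrays that stood apart, 6 of the 129 passed with a larger last step, namely Prss2, Sycn, Cd36, Fkbp5, Slc20a1 and Slc48a1 (0.786% of all genes). The direction of Prss2 and Sycn, at background outside Keap1-HKO mice, was fixed by the filter, which leaves 4. Of these, Cd36 was high on the Keap1-HKO arrays kept here, where the skeletal muscle list was high too. The part of muscle RNA in that call was not tested. On the same 10 arrays 5 passed with a larger first step, namely 9130409I23Rik, Fitm1, Hexa, Nr1i3 and Pir (0.82% of all genes). On simulated data with independent noise and 1 SD per gene for all genotypes, a difference of 1 between the steps was recovered in 20% and a difference of 2 in 74% of 100 genes each. The measured arrays differ from this setting. Mean absolute deviations were 0.22 to 0.60 on Nrf2-null and Keap1-HKO arrays against 0.10 to 0.15 on the others. Same-numbered arrays of Nrf2-null and Keap1-HKO mice were also correlated (r 0.685 to 0.787), so that these shares need not hold for the measured data.

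**Figure D4:**
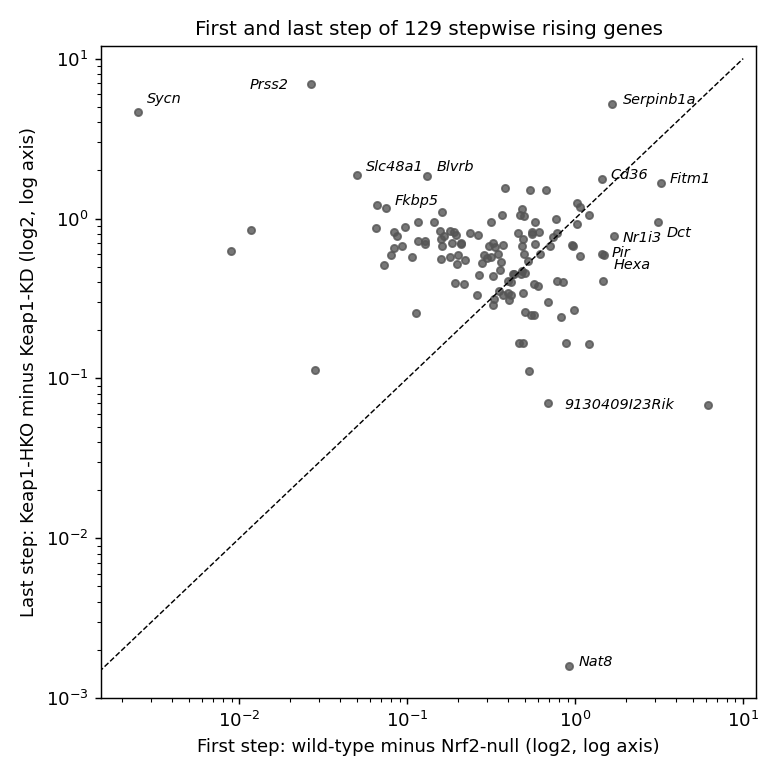
The last step (Keap1-HKO minus Keap1-KD mean) against the first step (wild-type minus Nrf2-null mean) of each of the 129 genes, both in log2 units on log axes, with a dashed line of equal steps. Of the 129 points 86 lie above the line, and 9130409I23Rik, far to the right, is the 1 gene whose steps differed in the limma test.

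Of the 129 genes, 38 had further probe sets on the array, 52 in all, which the rule had not read. They measure the same RNA and are no independent mice. All 52 had a Keap1-HKO mean above the Nrf2-null mean, against 40.5% of the 2698 further probe sets of all genes. Means were in rising order in 38 of the 52 (73.1%, against 7.41%), and 45 had all Keap1-HKO arrays above all Nrf2-null arrays (86.5%, against 8.49%). Entpd5 had 4 further probe sets, with differences of 2.45 to 3.07 and means in order in each. For Cd36, Trib3 and Cryl1 the second probe set gave 3.87, 3.83 and 2.26 with means in order. Smallest were Tmem176a at 0.22, Chpt1 at 0.32 and Tex2 at 0.47 on 1 further probe set each. For Prss2 and Sycn, whose lower genotypes were at background, the further probe sets differed about as much but were not in rising order.

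**Figure D5:**
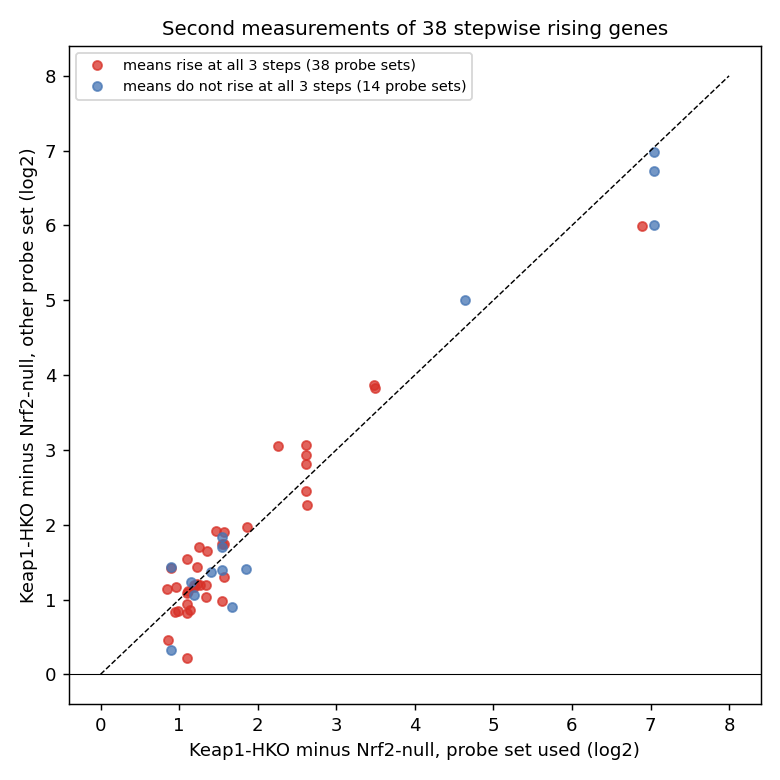
Keap1-HKO minus Nrf2-null difference (log2) on each of 52 further probe sets of 38 genes against that of the probe set used, with a dashed line of equality. Red points have means that rise at all 3 steps (38) and blue points do not (14). All lie above 0, and the blue points at the top right are Prss2 and Sycn.

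Genes just inside the 0.8 threshold were Pcsk6 (0.80), Cryzl2 (0.81) and Pi4ka (0.82). Pcsk6 read 8.14, 7.87 and 7.65 in Nrf2-null, 8.46, 8.00 and 8.17 in wild-type, 8.53, 8.41 and 8.27 in Keap1-KD and 9.06, 8.52 and 8.49 in Keap1-HKO livers. Cryzl2 read 6.16, 6.40 and 5.86 in Nrf2-null, 6.21, 6.40 and 6.42 in wild-type, 6.21, 6.38 and 6.49 in Keap1-KD and 7.12, 6.97 and 6.76 in Keap1-HKO livers, and Pi4ka read 8.00, 7.81 and 7.78 in Nrf2-null, 7.98, 7.91 and 7.94 in wild-type, 8.15, 8.06 and 8.07 in Keap1-KD and 9.11, 8.42 and 8.53 in Keap1-HKO livers. Keap1-KD and Keap1-HKO arrays of Pcsk6 overlapped, and those of Cryzl2 and Pi4ka did not. Just outside lay Rdh10, Lonp2 and Dpys at 0.7998, 0.7982 and 0.797, and 122 genes met the other conditions under the threshold. Some of the 129 neighbour each other on a chromosome: Aldh5a1 and Gpld1, Ccn1 and Ddah1, and Rnd2 and Vat1 with no protein-coding gene between them, Acsm1 and Acsm5 with 1, and Hsd17b6 and Rdh16 with 4. Among the 100 protein-coding genes on each side of the targeted genes, none of 57 measured beside Nfe2l2 and none of 47 beside Keap1 was among the 129.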

How the data were processed

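Liver RNA of 12 mice, 3 for each of 4 genotypes by the labels, was measured on 1 array per mouse. The deposited values are log2 intensities. The authors made them with gcRMA in R (background correction, quantile normalization, probe set summary), and dropped probe sets that reached an intensity of 100 in no genotype, so that such genes were not analysed here. Of 9622 probe sets, 8554 list 1 symbol and gave 5856 genes, each read from its probe set with the highest mean. Another 371 list several symbols and 697 none, and these were left out of the rule. The 129 genes, their groups, the role lists and the tests were chosen with earlier results of these data known. Arrays are read array by array for the 20 largest differences, for role-list genes and for those just inside the threshold, and the 10 lowest p-values of the test were followed. The 1 test was limma version 3.58.1 (R version 4.3.3, 1 fit of 4 genotypes with 8 residual degrees of freedom, moderated by eBayes), with Benjamini-Hochberg adjustment, called under 0.05, and was tested on simulated data. Percent levels are of un-logged intensities, and fold bounds are 2 to the power of a difference of log2 means. Alternatives changed the probe set, filter, floor, normalization, threshold, test and arrays. Leaving out both arrays that stood apart was added after seeing the data. The number of arrays limits the precision, and p-values set the tested difference against the spread among mice of the same genotype.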

Additional observations from a re-analysis of the deposited data

Results flagged for a closer look

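Among the 371 probe sets that list several genes, which entered no comparison, 9 (2.43%) met the same 3 conditions, with Keap1-HKO minus Nrf2-null differences of 0.83 to 7.00 on the log2 scale (median 0.96), and in 8 of the 9 all Keap1-HKO arrays exceeded the highest wild-type array (12.7% of all genes did). Among the 697 probe sets that list no gene, 17 (2.44%) met them, with differences of 1.15 to 4.96 (median 2.24), and in 13 of the 17 all Keap1-HKO arrays exceeded the highest wild-type array. Of all genes 2.83% met the 3 conditions, so that neither share exceeds that of the measured genes. These probe sets were picked for high Keap1-HKO values, and nothing is read from the counts against wild-type arrays. They are listed because they lie outside the measured genes, and as counts only, since no single gene can be named for them.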

How the results depend on the processing

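The rule found 97 genes with a floor at an intensity of 100, 100 with a threshold of 1, 177 with a threshold of 0.6, 115 with group medians, 120 after a second quantile normalization, 138 with array median centring, 116 to 188 without single arrays and 154 without both arrays that stood apart, against 129 as reported. Of the 129, 67 were found without any 1 of the 12 arrays. Prss2 and Sycn were lost with the floor and after the second quantile normalization. The call of 1 member in the test of the last against the first step (a larger first step) became 2 with the floor (both with a larger last step, Serpinb1a and Slc20a1), 12 with array weights, 11 without both arrays and 1 to 5 without single arrays. The direction of Serpinb1a, Prss2 and Sycn, under an intensity of 100 outside Keap1-HKO mice, was fixed by the filter. Prss2 and Sycn were among the calls with array weights, without Keap1-HKO replicate 1 and without both arrays. Over all genes 23 calls became 151 with array weights, whose estimation by limma stopped with a convergence warning, 94 without both arrays and 17 to 56 without single arrays. The Keap1-HKO replicate 1 array raised both counts when left out (5 and 56), and Nrf2-null replicate 1 raised the first to 2. The call of 9130409I23Rik was lost with the floor alone (adjusted p = 0.322, limma). The labels do not say that a replicate number marks a shared litter or day. Deviations from the genotype means of same-numbered arrays correlated over 0.1 in 15 of 18 pairs (0.69 to 0.79 for Nrf2-null with Keap1-HKO), but not for replicate 3 of wild-type with any other genotype (r −0.16 to 0.07). Arrays correlated best with their own number in 28 of 36 comparisons, each a choice among 3 arrays. The test as reported used no pairing, since the labels give none, and an effect shared by same-numbered arrays stands in its error. With the replicate number as a block, 3 members were called in the limma test (with Slc48a1 and Blvrb, adjusted p = 0.0196 and 0.0267) and the rule found 138 genes. The members with wild-type above Nrf2-null arrays numbered 50 as reported, 83 without both arrays and 50 to 83 without single arrays, highest without Nrf2-null replicate 1. Those with Keap1-KD above wild-type numbered 44 to 70, highest without wild-type replicate 1. The ARE core stood in 23 genes on both strands and in 11 on the gene strand. The cause of these changes was not tested. The other alternatives stayed within 1.5 times the reported counts, and no Keap1-HKO minus Nrf2-null difference of a gene read array by array changed sign. Single steps did change sign. Without Keap1-HKO replicate 1 the last step was −0.46 in Nat8, −0.03 in Zbtb16 and −0.0007 in Limd2, and without Nrf2-null replicate 1 the first step was −0.13 in Calr3 and −0.08 in Orm2. Leaving out 1 of the other 10 arrays turned a step in 2 to 17 genes. Values under an intensity of 100 limit 46 genes in Nrf2-null mice and 29 in wild-type mice.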
